A study of Mus musculus with 12 samples.

Results

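Kinesins are motor proteins that walk along microtubules or take their ends apart, and the mouse liver arrays analysed here carry probe sets for 37 genes whose symbol is Kif followed by a number and at most one letter from a to c. They were 37 of the 18193 genes that had a probe set of their own, and each was read from the probe set with the highest mean log2 signal over the 12 arrays. Of the 37, 11 were set apart as mitotic kinesins (Kif2c, Kif4, Kif11, Kif14, Kif15, Kif18a, Kif18b, Kif20a, Kif20b, Kif22 and Kif23), and the other 26 are called other kinesins. A gene was tested when its signal exceeded the array's own median on at least 2 arrays, which 30 of the 37 did, 10 mitotic and 20 other kinesins, among 14102 genes tested in all. The genes not tested were Kif14 among the mitotic kinesins and Kif2b, Kif5c, Kif7, Kif26a, Kif27 and Kif28 among the others.

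Livers came from female YAP fl/fl mice aged 8 to 12 weeks. Mice called KO had received AAV8-TBG-Cre, which deletes Yap1, the transcriptional coactivator of the Hippo pathway, in hepatocytes, and mice called WT had received AAV8-TBG-GFP, so both groups carried the floxed alleles and a virus. TCPOBOP, a mitogen that activates the nuclear receptor CAR and makes mouse hepatocytes divide without injury, was given once by gavage at 3 mg/kg 10 days after the virus. Total liver RNA was hybridised from 2 KO and 2 WT livers at day 0, which had the virus alone, from 1 pool of each genotype at day 1, and from 3 KO and 3 WT livers at day 2. The TBG promoter is active in hepatocytes, so the other cells of the KO liver kept their Yap1. No group received the corn oil vehicle alone, so TCPOBOP and the days after gavage cannot be told apart.

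In a dividing cell, kinesins build the spindle, move the chromosomes and help to separate the daughter cells. Kif11 slides antiparallel microtubules to push the spindle poles apart, Kif22 and Kif4 bind the chromosome arms, Kif2c, Kif18a and Kif18b shorten or cap microtubule ends, and Kif20a, Kif23, Kif14 and Kif20b act at the midzone and in cytokinesis. The genes of these motors are switched on late in the cell cycle, and in many of them the MuvB complexes bind a short promoter element called the CHR. Most other kinesins carry organelles, vesicles or ciliary cargo and are used by resting cells too.

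The authors' values are MAS5 signals, in arbitrary intensity units, and differences are given on the log2(signal + 16) scale, which understates the change of dim genes. Median signals were 239.0 to 277 on the 6 KO arrays and 231.6 to 266 on the 6 WT arrays. At day 2 the highest signal was 48217 to 67457 in KO livers and 103216 to 116918 in WT livers, and genes with a mean log2 signal from 8 to 10 had a median difference of 0.19 between KO and WT livers, against -0.24 for genes at or above 12. The 5 hepatocyte markers measured, Alb among them, summed to 180327 to 234888 units in KO livers at day 2, to 323642 to 368016 in WT livers at day 2, to 316503 to 369619 in KO livers at day 0 and to 271684 to 277092 in WT livers at day 0. All 5 fell between day 0 and day 2 in KO livers. No marker list of another liver cell type was at 0, and at day 2 the 6 Kupffer cell markers summed to 5551 to 9153 in KO livers and 8782 to 9239 in WT livers, and the 6 endothelial markers to 5325 to 6338 in KO livers and 4047 to 5037 in WT livers. The part that this narrower range and the lower hepatocyte markers have in the kinesin values was not tested. In whole liver, fewer cells of a type and less RNA per cell cannot be told apart. The brighter Yap1 probe set read 449.6 to 797 units on the 6 KO arrays and 999 to 1306 on the 6 WT arrays, with no overlap, while the dimmer one overlapped; where these probes lie relative to the deleted part was not analysed here.

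Most of the mitotic kinesins share a promoter sequence, which did not enter their choice. RefSeq promoter windows (build GRCm38.p6, 250 bases before to 50 after a transcript's start) were at hand for 31 of the 37 genes, 10 mitotic and 21 other kinesins, in 35 windows. The CHR was searched as TTTGAA on both strands, so that TTCAAA is the same element read on the other strand. It stood in 9 of the 10 mitotic windows (90.0%) and in 3 of the 25 windows of other kinesins (12.0%), against 17.9% of all 32851 windows in the table and 12.8% of the windows of tested genes. In 7 mitotic kinesins a match began within 30 bases of the start, as it did in 3.14% of all windows. The 30 bases around the match nearest the start are shown for each of the 9 genes so that the element can be compared, with the matched letters in capitals, read along the gene's strand.
Kif22, chr7:127042420-127042449, minus strand: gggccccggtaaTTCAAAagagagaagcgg
Kif11, chr19:37376351-37376380, plus strand: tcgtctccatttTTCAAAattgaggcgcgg
Kif15, chr9:122951050-122951079, plus strand: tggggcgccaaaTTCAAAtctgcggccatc
Kif20b, chr19:34922353-34922382, plus strand: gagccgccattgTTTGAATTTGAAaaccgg
Kif4, chrX:100626072-100626101, plus strand: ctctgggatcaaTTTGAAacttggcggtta
Kif23, chr9:61946780-61946809, minus strand: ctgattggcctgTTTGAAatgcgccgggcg
Kif18b, chr11:102925104-102925133, minus strand: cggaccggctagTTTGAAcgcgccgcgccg
Kif2c, chr4:117178858-117178887, minus strand: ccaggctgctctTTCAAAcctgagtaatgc
Kif14, chr1:136467608-136467637, plus strand: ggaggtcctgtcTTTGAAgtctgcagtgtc

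Kif20b carried 2 copies in a row. In Kif2c and Kif14 the match nearest the start began at -103 and -228, farther from it than in the others. Kif18a was the mitotic kinesin with a window but no CHR match, and the other kinesins with one were Kif1a, Kif26b and Kif27. The CCAAT box, searched as CCAAT on both strands, stood in 6 of the 10 mitotic windows, in 9 of the 25 other windows and in 37.4% of all windows. An E2F-like site, searched as TTGGCGC or TTCCCGC on both strands, stood in 2 mitotic windows, those of Kif15 and Kif18a, in 2 other windows and in 6.81% of all windows. Among the kinesins with a window, Kif22, Kif11 and the other kinesin Kif26b had both a CCAAT box and a CHR within the 120 bases before the start. Kif26b had its CHR at -9 and its CCAAT box at -73. On the probe sets used, neither Kif26b nor Kif11 was called in any of the comparisons. The 2 mitotic stretches are shown so that the spacing of the matches can be compared, with both matches in capitals (ATTGG is the CCAAT box on the other strand).
Kif22, chr7:127042421-127042540, minus strand: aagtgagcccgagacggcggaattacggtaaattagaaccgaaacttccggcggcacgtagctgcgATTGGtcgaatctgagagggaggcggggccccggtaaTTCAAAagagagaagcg
Kif11, chr19:37376262-37376381, plus strand: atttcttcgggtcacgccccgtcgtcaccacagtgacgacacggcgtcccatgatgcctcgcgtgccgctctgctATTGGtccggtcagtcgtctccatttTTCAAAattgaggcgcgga

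**Figure D1:**
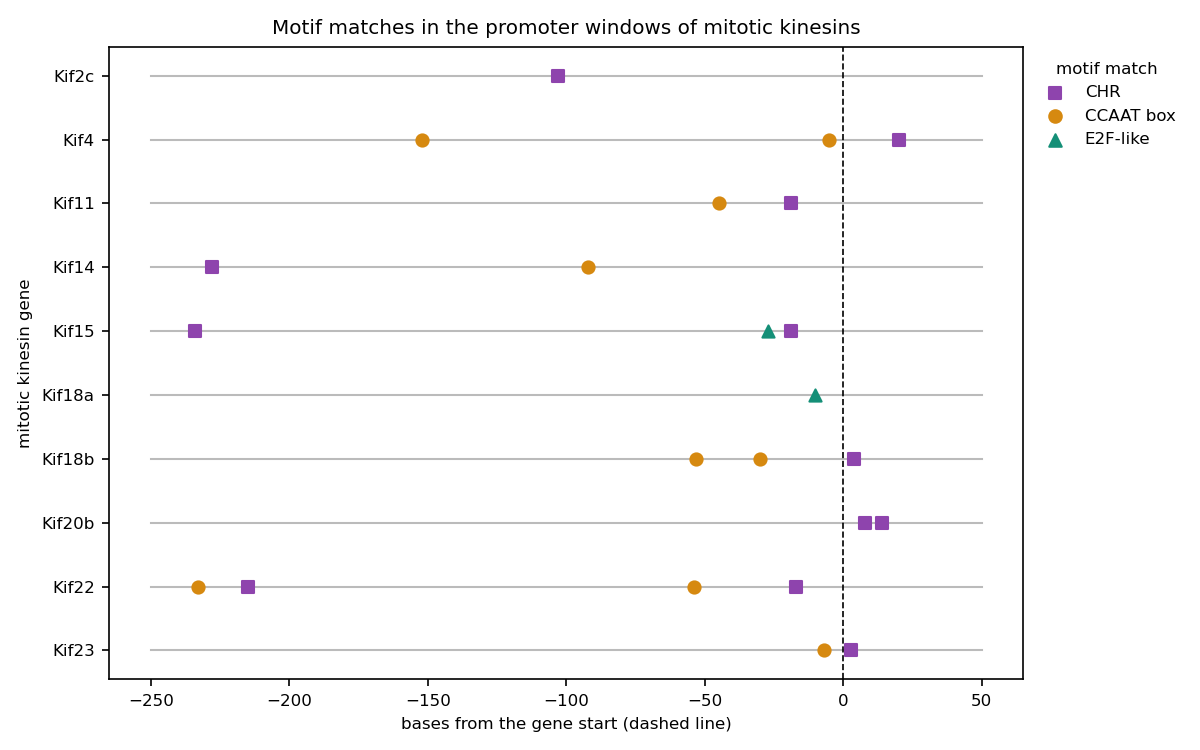
Positions of CHR, CCAAT and E2F-like matches (markers) in the promoter windows of the 10 mitotic kinesins with a window, in bases from the start (dashed line). CHR matches lie close to the start in 7 genes, and Kif18a has none.

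The first question is which kinesins changed in WT livers between day 0 and day 2 after TCPOBOP. Kif22 rose, by 2.27 ± 0.44 on the log2 scale (limma, adjusted p = 0.00551), which is 4.82-fold, and it was the single kinesin called among the 30 tested. Among all genes 7.26% were called higher and 5.38% lower in the same comparison. On 5 of the 10 mitotic kinesins (Kif22, Kif20a, Kif20b, Kif11 and Kif4) every day 2 array was above both day 0 arrays, and on none was every day 2 array below, where 19.2% of all genes were apart in the first direction and 25.9% in the second. Kif20a passed the filter largely, and Kif20b wholly, through WT arrays of day 1 and day 2. Their places in this count, and among the 10 genes of the median, are thus no independent support. The median difference of the 10 mitotic kinesins was 0.43, that of the other kinesins -0.26 and that of all genes -0.11. Centring each array on its own median moved the median of all genes to 0.02 and called 4 mitotic kinesins, Kif22, Kif20a, Kif11 and Kif4, all higher. Under centring 1257 of all 14102 genes were called higher and 395 lower, against 1024 and 758 without it, so calls moved upward in general.

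Kif22, the chromokinesin that pushes chromosome arms toward the spindle equator, read 156 and 421 units at day 0, 232 in the day 1 pool and 291, 195 and 281 at day 2 in KO livers. In WT livers it read 328 and 114 at day 0, 843 in the day 1 pool and 931, 988 and 1098 at day 2. The day 1 and day 2 WT arrays were thus above every other array, and the day 0 arrays of both genotypes were spread widely. Without the second WT day 0 array, the lower of the pair, the change was 1.57 and lost its call (adjusted p = 0.0769).

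Kif4, the other chromosome-bound motor, which also recruits condensin and works with Prc1 at the midzone, read 739.8 and 869 units at day 0, 643 in the day 1 pool and 996, 855 and 734 at day 2 in KO livers. WT livers gave 511 and 643 at day 0, 1093 in the day 1 pool and 1017, 964 and 699 at day 2. The WT day 2 arrays lay above the WT day 0 arrays but overlapped the KO arrays of day 0 and day 2, and the difference of 0.61 ± 0.21 in WT livers was not called (adjusted p = 0.0769).

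Kif11, the motor that keeps the spindle bipolar, read 357 and 501 units at day 0, 421 in the day 1 pool and 399, 387 and 463 at day 2 in KO livers. The WT signals were 266 and 409.6 at day 0, 531 in the day 1 pool and 547, 620.2 and 582 at day 2. The WT day 2 arrays were the highest of all 12, and their difference from day 0, 0.79 ± 0.25, just missed the threshold (adjusted p = 0.0561).

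Kif15, which can stand in for Kif11 in keeping the poles apart, read 158 and 743 units at day 0, 310.5 in the day 1 pool and 283, 322 and 336 at day 2 in KO livers. Its signals in WT livers were 94.1 and 429.9 at day 0, 311 in the day 1 pool and 244, 280.4 and 221 at day 2. Its lowest and highest arrays were day 0 livers, so the day 2 arrays lay inside the day 0 range in both genotypes, and the WT difference was 0.25 ± 0.62 (adjusted p = 0.837).

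Kif20a, which brings the chromosomal passenger complex to the midzone, read 14.4 and 83.1 units at day 0, 128 in the day 1 pool and 276, 61.0 and 206 at day 2 in KO livers. In WT livers it read 108 and 57.4 at day 0, 301 in the day 1 pool and 514, 349.9 and 416 at day 2. The WT arrays of day 1 and day 2 were above all others, and the WT difference of 2.20 ± 0.69 just missed the threshold (adjusted p = 0.0574). The second KO array at day 2 stood with the day 0 arrays.

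Kif20b, a midzone kinesin needed to finish cytokinesis, read 126 and 37.3 units at day 0, 131 in the day 1 pool and 120.1, 93.7 and 182 at day 2 in KO livers. WT livers gave 37.0 and 145 at day 0, 274 in the day 1 pool and 287, 198 and 307 at day 2. Here too the WT arrays of day 1 and day 2 were above all others, with a WT difference of 1.58 ± 0.65 that was not called (adjusted p = 0.142).

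Kif23, which forms the centralspindlin complex with Racgap1, read 281 and 286 units at day 0, 173 in the day 1 pool and 362, 84.2 and 271 at day 2 in KO livers. The WT signals were 276 and 218 at day 0, 128 in the day 1 pool and 218, 173 and 36.4 at day 2. The groups overlapped and the WT difference was -0.98 ± 0.70 (adjusted p = 0.403).

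Kif14, which works with citron kinase in cytokinesis, was below the array median on every array and was not tested. Its signals were 3.2 to 40.7 units on the KO arrays and 4.6 to 24.9 units on the WT arrays, near the floor of the measurement, and no direction is read from them.

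The kinesins that act on microtubule ends showed no call on the probe sets used. Kif2c, a depolymerase that corrects faulty kinetochore attachments, read 1091 and 1173 units at day 0, 1030.0 in the day 1 pool and 1306, 1399 and 1219.5 at day 2 in KO livers. Its signals in WT livers were 1474 and 1406 at day 0, 816 in the day 1 pool and 1580.1, 1600.4 and 858 at day 2, with a difference of -0.15 ± 0.23 (adjusted p = 0.720). The third WT array at day 2 stood far below the other two.

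Kif18a, which dampens chromosome movements at the kinetochore, read 229 and 140.5 units at day 0, 91.6 in the day 1 pool and 256, 232 and 366 at day 2 in KO livers. In WT livers it read 229 and 258 at day 0, 215 in the day 1 pool and 226, 222 and 237 at day 2, so that all 6 WT arrays lay within a narrow band.

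Kif18b, which shortens astral microtubules, read 1089.9 and 806 units at day 0, 799.8 in the day 1 pool and 1159, 947 and 947 at day 2 in KO livers. WT livers gave 1089 and 1078 at day 0, 919 in the day 1 pool and 899, 1103 and 1171 at day 2. The WT differences of Kif18a and Kif18b were -0.08 ± 0.38 (adjusted p = 0.911) and -0.04 ± 0.18 (adjusted p = 0.902), and under centring on the array median both were slightly above 0, at 0.04 and 0.08.

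**Figure D2:**
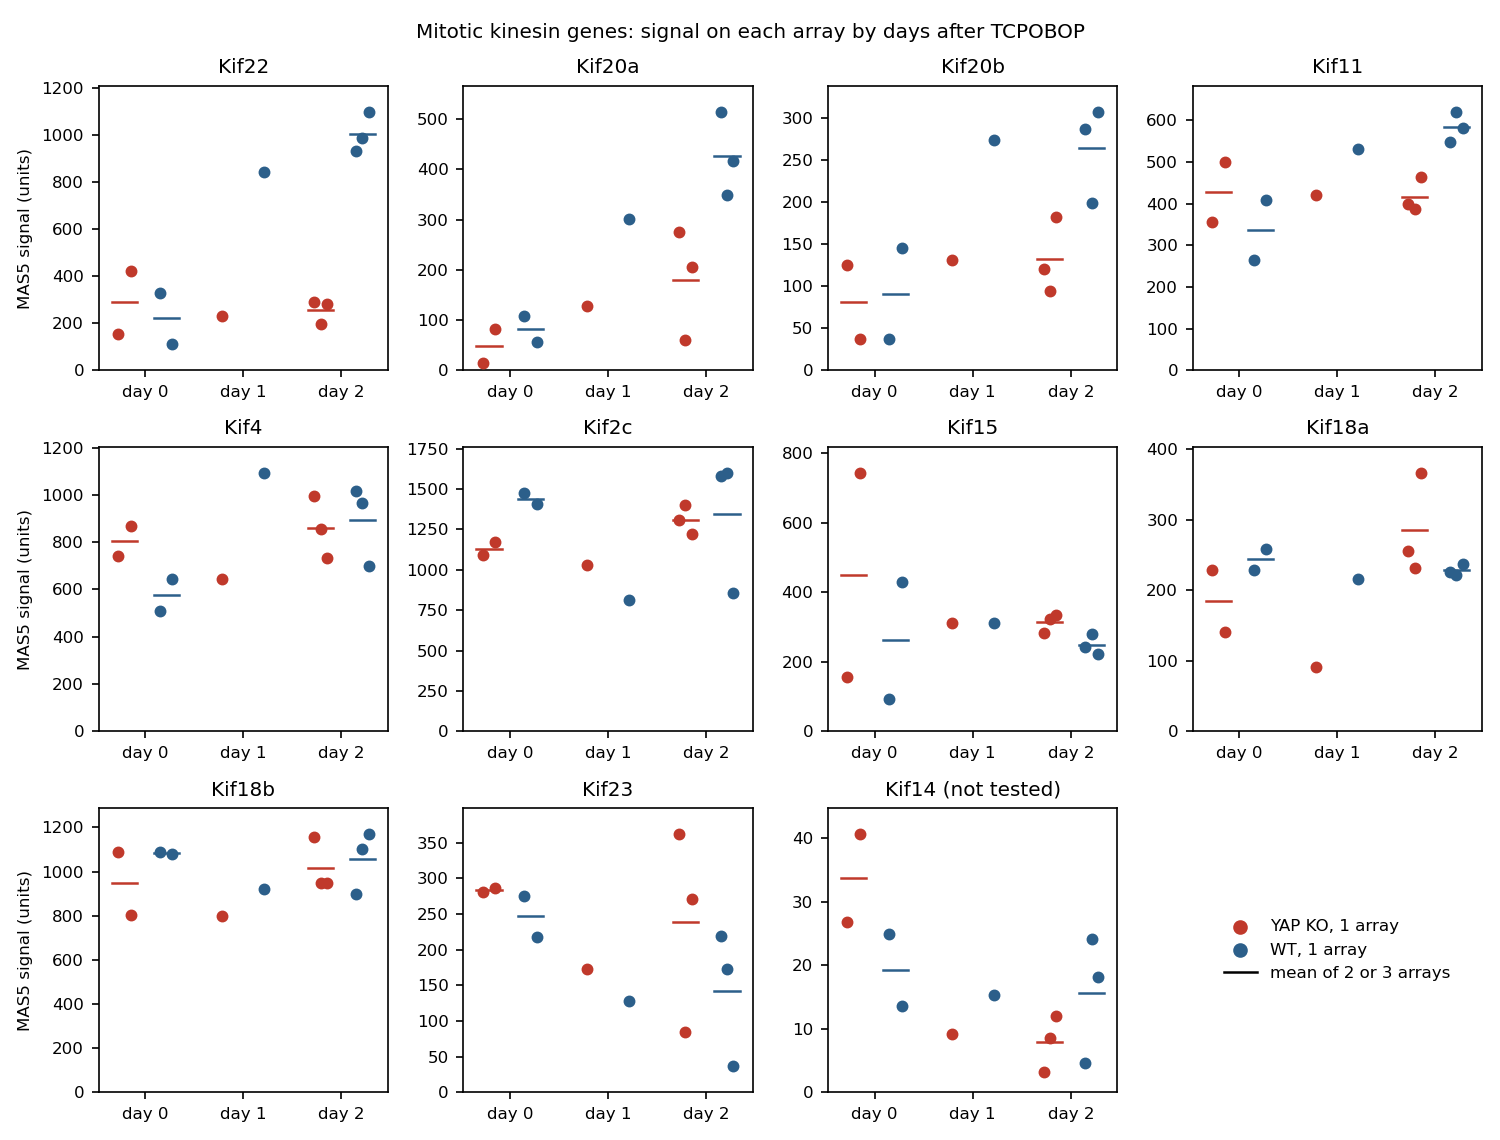
MAS5 signal of the 11 mitotic kinesins on each of the 12 arrays, by day, with KO arrays left of WT arrays and a bar at each group's mean. In Kif22 the WT arrays of day 1 and day 2 lie between 843 and 1098 units and every KO array lies at or under 421.

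In KO livers no mitotic kinesin was called between day 0 and day 2, where 4.2% of all genes were called higher and 4.49% lower. At an unadjusted p under 0.05, 1 of the 10 was higher, Kif20a. Their differences ran from -0.43 to 1.64 with a median of 0.10, against 0.05 for all genes, and on 2 of the 10, Kif2c and Kif18a, every day 2 array was above both day 0 arrays, where 22.6% of all genes were so. Of the 4 whose WT arrays were apart both from day 0 and from KO at day 2, Kif20a differed by 1.64 ± 0.69 in KO livers (adjusted p = 0.179), Kif20b by 0.72 (adjusted p = 0.566), Kif11 by -0.03 (adjusted p = 0.971) and Kif22 by -0.03 ± 0.44 (adjusted p = 0.979). The choice of these 4 used the same KO day 2 arrays, so lower values were favoured and are no independent support.

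At day 2, KO and WT livers could be compared directly. Kif22 was 3.80-fold lower in KO livers (log2 difference -1.93 ± 0.40, adjusted p = 0.0142), with a mean of 256 ± 52.6 units in KO livers and 1006 ± 84.6 units in WT livers (SD, n = 3 each). It was the one mitotic kinesin called, where 5.23% of all genes were called lower and 3.99% higher. Kif22, Kif20a, Kif20b and Kif11 had every KO array below every WT array, and Kif15 had every KO array above. Of these, Kif20a had passed the filter largely, and Kif20b wholly, through WT arrays of day 1 and day 2. The places of these genes in this count are thus no independent support. Among all genes 16.1% were apart with KO lower and 20.1% with KO higher. The difference was -1.36 ± 0.61 for Kif20a (adjusted p = 0.172), -0.94 ± 0.58 for Kif20b (adjusted p = 0.307) and -0.47 ± 0.22 for Kif11 (adjusted p = 0.183), none of them called. The median over the 10 mitotic kinesins was -0.05, with 4 genes above 0 and 6 below it, and that of all genes was 0.09. The call of Kif22 was lost without the third WT array at day 2 (adjusted p = 0.0541) and without the second KO array at day 2 (adjusted p = 0.0605). This comparison shares its arrays with the day 2 comparisons within each genotype, so the values are not independent of them.

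The change in KO livers minus the change in WT livers tests directly whether the response differed. For Kif22 it was -2.30 ± 0.62, which did not pass (adjusted p = 0.0679). No kinesin was called, where 2.06% of all genes were called lower and 1.08% higher. At an unadjusted p under 0.05, limma gave 2 mitotic kinesins as lower, Kif22 and Kif11, and 5 other kinesins as higher, Kif5b, Kif13a, Kif16b, Kif17 and Kif21b. The share of all genes at that unadjusted threshold is not given here, so these counts cannot be judged against it. The median was -0.45 over the mitotic kinesins, 0.39 over the other kinesins and 0.11 over all genes, and with arrays centred on their own medians it was -0.64, 0.20 and -0.07. The median of the mitotic kinesins rested on single day 0 arrays, being 0.05 without the first WT array at day 0 and 0.12 without the second KO array at day 0.

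Before TCPOBOP no kinesin was called between the genotypes. At day 0, 0 of the 30 kinesins were called, where 0.17% of all genes were, and at an unadjusted p under 0.05 limma gave 2, Kif12 and Kif1a, both higher in KO livers. Kif1a had passed the filter on 2 arrays, both from KO livers, so its place here is no independent support. Its WT day 0 arrays read 19.3 and 184.2 units. The mitotic kinesins had a median difference of 0.05, with 2 genes apart in each direction, against 16.6% of all genes higher and 19.0% lower. The 2 day 0 arrays of a genotype differed widely from each other for Kif15, Kif20a, Kif20b and Kif22.

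**Figure D3:**
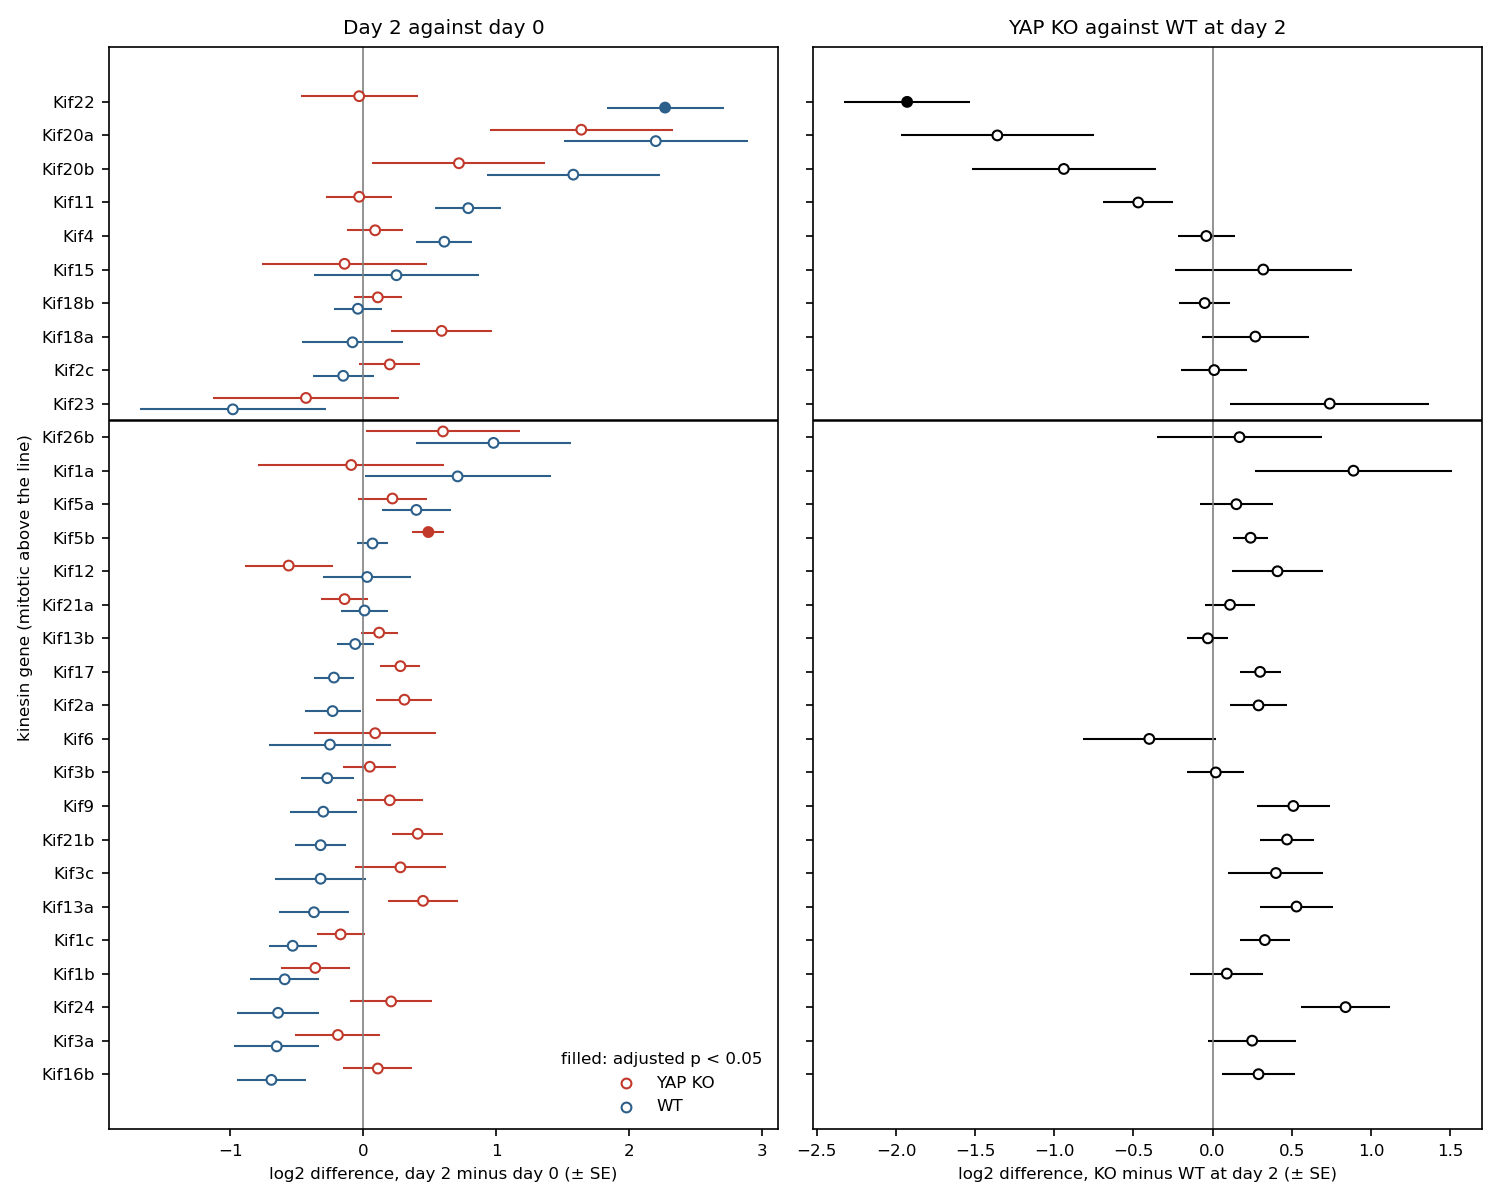
Log2 difference (± SE) of the 30 tested kinesins, mitotic kinesins above the line, for day 2 against day 0 in each genotype (left) and for KO against WT at day 2 (right); filled points passed the threshold. Kif22 passes at 2.27 in WT livers and at -1.93 for KO against WT, and Kif5b at 0.49 in KO livers.

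The day 1 pools were 1 array of each genotype, so their differences have no test. Against the mean of the day 0 arrays, the KO pool differed by -0.15 for Kif22, 1.39 for Kif20a, 0.76 for Kif20b, -0.31 for Kif4 and -0.01 for Kif11. The WT pool differed from its day 0 arrays by 2.02 for Kif22, 1.73 for Kif20a, 1.65 for Kif20b, 0.91 for Kif4 and 0.66 for Kif11. In the KO pool 1 of the 10 mitotic kinesins was above 1 on the log2 scale, Kif20a, as were 6.11% of all genes, and in the WT pool 3 were, Kif22, Kif20a and Kif20b, as were 6.35% of all genes. The WT pool was itself among the arrays through which Kif20a and Kif20b passed the filter. Between the pools, Kif22 differed by -1.79, Kif20a by -1.15 and Kif18a by -1.10, KO minus WT, which made 3 of 10 below -1, as were 5.1% of all genes. The medians of the other kinesins at day 1 were -0.20 in the KO pool and -0.30 in the WT pool.

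Several kinesins were read by more than 1 probe set, and the choice of probe set changed the picture for some. The 37 genes had 99 probe sets, of which 67 passed the filter on low signal and 37 were dimmer than the one used. When every kept probe set of every gene was tested, 3 of the 16 mitotic probe sets were called higher in WT livers at day 2 and none lower, where 6.89% of all kept probe sets were called higher and 4.36% lower. These 3 were the brighter one of Kif22 and a dimmer one each of Kif11 and Kif2c. Of the 51 probe sets of other kinesins, 1 was called lower in WT livers. In KO livers no mitotic probe set was called, and 2 of the 51 were called higher and 1 lower, where 3.39% of all kept probe sets were called higher and 3.87% lower. Between KO and WT livers at day 2, the brighter Kif22 set was called lower and 1 of the 51 higher, where 4.78% and 3.08% of all kept probe sets were.

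For Kif2c, the dimmer probe set 1449060_at read 409.0 and 327 units at day 0, 489 in the day 1 pool and 390.3, 405 and 423 at day 2 in KO livers. The WT signals were 296 and 304 at day 0, 373 in the day 1 pool and 402, 844 and 731 at day 2. All WT day 2 arrays were above the WT day 0 arrays, by 1.03 ± 0.29 (adjusted p = 0.0422), where the brighter one gave -0.15. The remaining Kif2c probe sets gave -0.07 ± 0.26 and 1.34 ± 0.48, neither called, so no single direction holds for this gene.

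For Kif11, the dimmer probe set 1452315_at read 104 and 189 units at day 0, 266 in the day 1 pool and 244, 172 and 249 at day 2 in KO livers. Its signals in WT livers were 172 and 77.3 at day 0, 268 in the day 1 pool and 348, 385 and 336 at day 2. Its WT difference was 1.49 ± 0.43 (adjusted p = 0.0442), and that of 1435306_a_at was 1.83 ± 0.71 (adjusted p = 0.126), so all 3 had the same sign in WT livers. In KO livers the dimmer ones gave 0.59 and 1.05, neither called, where the brighter gave -0.03.

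For Kif22, the probe set used carries the suffix _x_at, which Affymetrix gives where some probes may also match other sequences, and the dimmer one, 1451128_s_at, has the suffix for sets shared by several transcripts. The dimmer one read 21.8 and 7.4 units at day 0, 95.2 in the day 1 pool and 72.5, 62.1 and 28.0 at day 2 in KO livers. In WT livers it read 32.0 and 54.1 at day 0, 217 in the day 1 pool and 349.7, 342 and 186 at day 2. The WT arrays of day 1 and day 2 were again the highest, but neither the WT difference of 2.36 ± 0.74 (adjusted p = 0.0608) nor the difference of -2.15 ± 0.66 between KO and WT livers at day 2 (adjusted p = 0.0671) was called. In KO livers it gave 1.18 ± 0.74 (adjusted p = 0.401), where the brighter set gave -0.03.

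**Figure D4:**
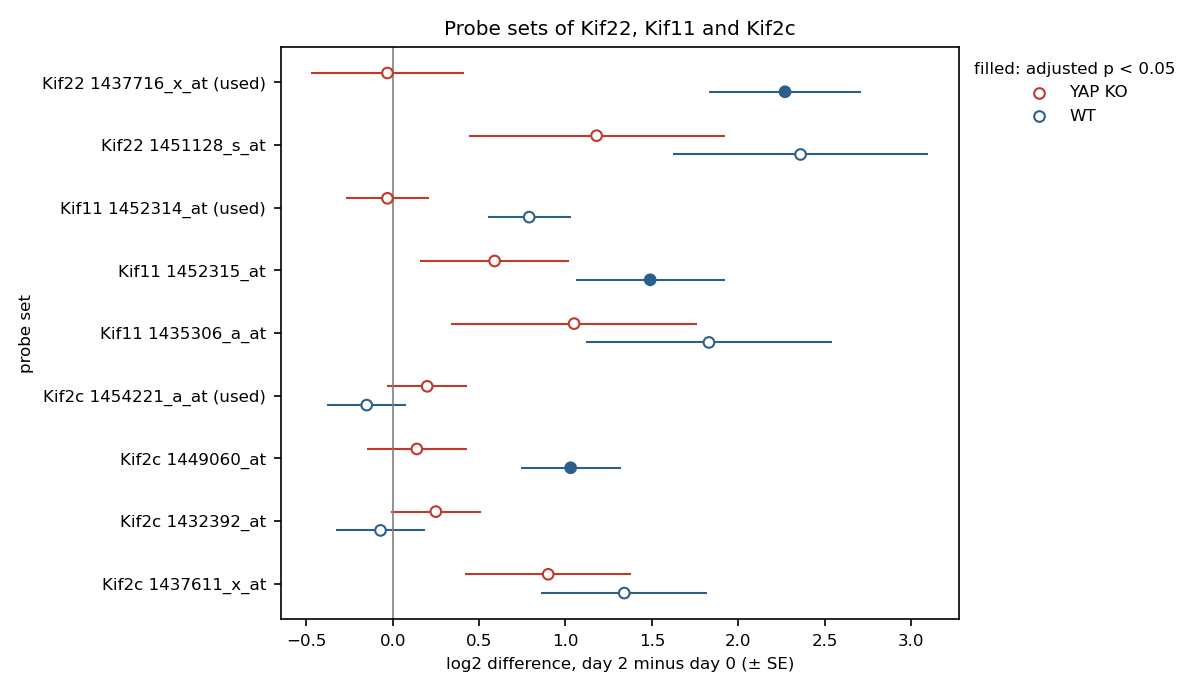
Log2 difference between day 2 and day 0 (± SE) for each kept probe set of Kif22, Kif11 and Kif2c in KO and WT livers; filled points passed the threshold in the fit over all kept probe sets. The WT values of Kif2c run from -0.15 to 1.34 between its 4 probe sets.

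The other 26 kinesins mostly serve transport in cells that do not divide. The 20 of them that were tested showed a single call on the probe sets used. Kif5b, the widely expressed heavy chain of conventional kinesin, rose in KO livers by 0.49 ± 0.12 (adjusted p = 0.0316), 1.40-fold, and was 1 of 20 called higher, where 4.2% of all genes were. It read 1447 and 1409 units at day 0, 1699.7 in the day 1 pool and 1856, 2048 and 2121 at day 2 in KO livers. WT livers gave 1574 and 1654 at day 0, 1667 in the day 1 pool and 1746, 1794 and 1564 at day 2. The KO day 2 arrays were the highest of the 12 and the KO day 0 arrays the lowest. The change in WT livers was 0.07 (adjusted p = 0.752), and the KO change exceeded it by 0.41 ± 0.18, which was not called (adjusted p = 0.211). The call was lost under centring on the array median (adjusted p = 0.0844) and without either KO array of day 0 or the second or the third KO array of day 2 (adjusted p = 0.0664 to 0.105), and the dimmer probe sets of Kif5b gave 0.07, 0.27 and 0.36 in KO livers, none called.

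Of the brightest other kinesins, Kif1b, a carrier of mitochondria and synaptic vesicle precursors in neurons, read 2466 and 1650.5 units at day 0, 1289 in the day 1 pool and 2293, 1409 and 1190.3 at day 2 in KO livers. The WT signals were 1954 and 2536 at day 0, 1076 in the day 1 pool and 1344, 1458 and 1637 at day 2. The WT day 2 arrays were all below the WT day 0 arrays, with a difference of -0.59 ± 0.26 that was not called (adjusted p = 0.164). All 6 kept Kif1b probe sets had a WT difference below 0, from -0.72 to -0.20, and 1 of them, 1423995_at, was called at -0.72 ± 0.19 (adjusted p = 0.0328). In KO livers the 6 ran from -1.07 to 0.17, and 1451200_at was called at -0.60 ± 0.15 (adjusted p = 0.0270), which was close to its WT difference of -0.46 ± 0.15 (adjusted p = 0.0655). Between KO and WT livers at day 2, 1455182_at was called higher, by 0.57 ± 0.13 (adjusted p = 0.0251), with 874, 887 and 890.2 units in KO livers and 566, 595 and 607 units in WT livers, while the other 5 ran from -0.60 to 0.23 and were not called. The calls of Kif1b thus fell on a different probe set in each comparison.

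Kif13b, a motor that carries the scaffold protein Dlg1, read 1383 and 1271 units at day 0, 1189 in the day 1 pool and 1307, 1439.7 and 1589 at day 2 in KO livers. Its signals in WT livers were 1665 and 1418 at day 0, 1418 in the day 1 pool and 1614, 1466 and 1349 at day 2, so that the 2 genotypes overlapped on day 2. Kif2a, a relative of Kif2c that depolymerises microtubules in neurons and at spindle poles, read 965 and 1294 units at day 0, 936 in the day 1 pool and 1202, 1415 and 1565 at day 2 in KO livers. In WT livers it read 1086 and 1616 at day 0, 1304 in the day 1 pool and 961, 1244 and 1209 at day 2. In both genes the day 0 and day 2 arrays of each genotype overlapped, and none of their comparisons was called.

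Kif17, a motor of dendrites and cilia, read 958 and 1019.9 units at day 0, 773 in the day 1 pool and 1079.9, 1329 and 1218 at day 2 in KO livers. WT livers gave 1065 and 1211 at day 0, 839.9 in the day 1 pool and 1027, 887 and 1020.1 at day 2. Day 2 lay above day 0 in KO livers, by 0.28 ± 0.15 (adjusted p = 0.298), and below it in WT livers, by -0.22 ± 0.15 (adjusted p = 0.386). The 2 dimmer probe sets had WT values above 0. The dimmest, 1419826_at, read 72.0 and 88.4 units at day 0, 232 in the day 1 pool and 746, 269 and 379 at day 2 in KO livers, and 71.5 and 76.7 at day 0, 692 in the day 1 pool and 252, 58.8 and 84.6 at day 2 in WT livers. It was called higher in KO livers at day 2, by 2.20 ± 0.60 (adjusted p = 0.0488), and gave 0.49 ± 0.60 in WT livers (adjusted p = 0.660). The other, 1419827_s_at, gave 0.25 in KO livers and 0.04 in WT livers, neither called.

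Over the 20 other kinesins tested, 10 had every WT day 2 array below both WT day 0 arrays and none had every one above, where 25.9% of all genes were apart downward, and the differences ran from -0.69 to 0.98. None was called, and at an unadjusted p under 0.05 limma gave 3 as lower, Kif1b, Kif1c and Kif16b. In KO livers 4 were apart upward and 2 downward, where 22.6% and 17.8% of all genes were, with a median of 0.16. Between KO and WT livers at day 2, 18 of the 20 had a value above 0, with a median of 0.29, as had 8077 of all 14102 genes tested, with a median of 0.09. Of the 18, Kif1a had passed the filter through KO arrays alone. In 7 of the 20 the groups were apart with KO higher and in none with KO lower, where 20.1% and 16.1% of all genes were. Of the 20, 0 were called, where 3.99% of all genes were called higher and 5.23% lower, and limma gave 5 at an unadjusted p under 0.05, all higher (Kif9, Kif13a, Kif17, Kif21b and Kif24). For the unadjusted counts in both comparisons the share of all genes is not given here. Genes with a mean log2 signal from 8 to 10, the range of most kinesins, had a median of 0.19 in that comparison, and centring the arrays on their medians left 13 of the 20 above 0, with a median of 0.11, against -0.08 for all genes. Markers of ciliated cells, in which Kif3a and Kif17 are known to act, summed to 1540.0 to 1574 units in KO livers and 770.4 to 1194 units in WT livers at day 2 over 5 genes. Of the 3 ciliated cell markers tested, 1 was called higher in KO livers, Dnah5, by 2.27 ± 0.26 (adjusted p = 0.00133), where 3.99% of all genes were. Dnah5 had fallen in WT livers between day 0 and day 2 (-2.33 ± 0.29, adjusted p = 0.000283). In KO livers it was not called (0.50 ± 0.29, adjusted p = 0.343). The others tested, Foxj1 and Dnah9, differed by 0.13 and 0.47 between KO and WT livers at day 2, neither called (adjusted p = 0.772 and 0.222). The part of these markers in the values of the other kinesins was not tested.

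**Figure D5:**
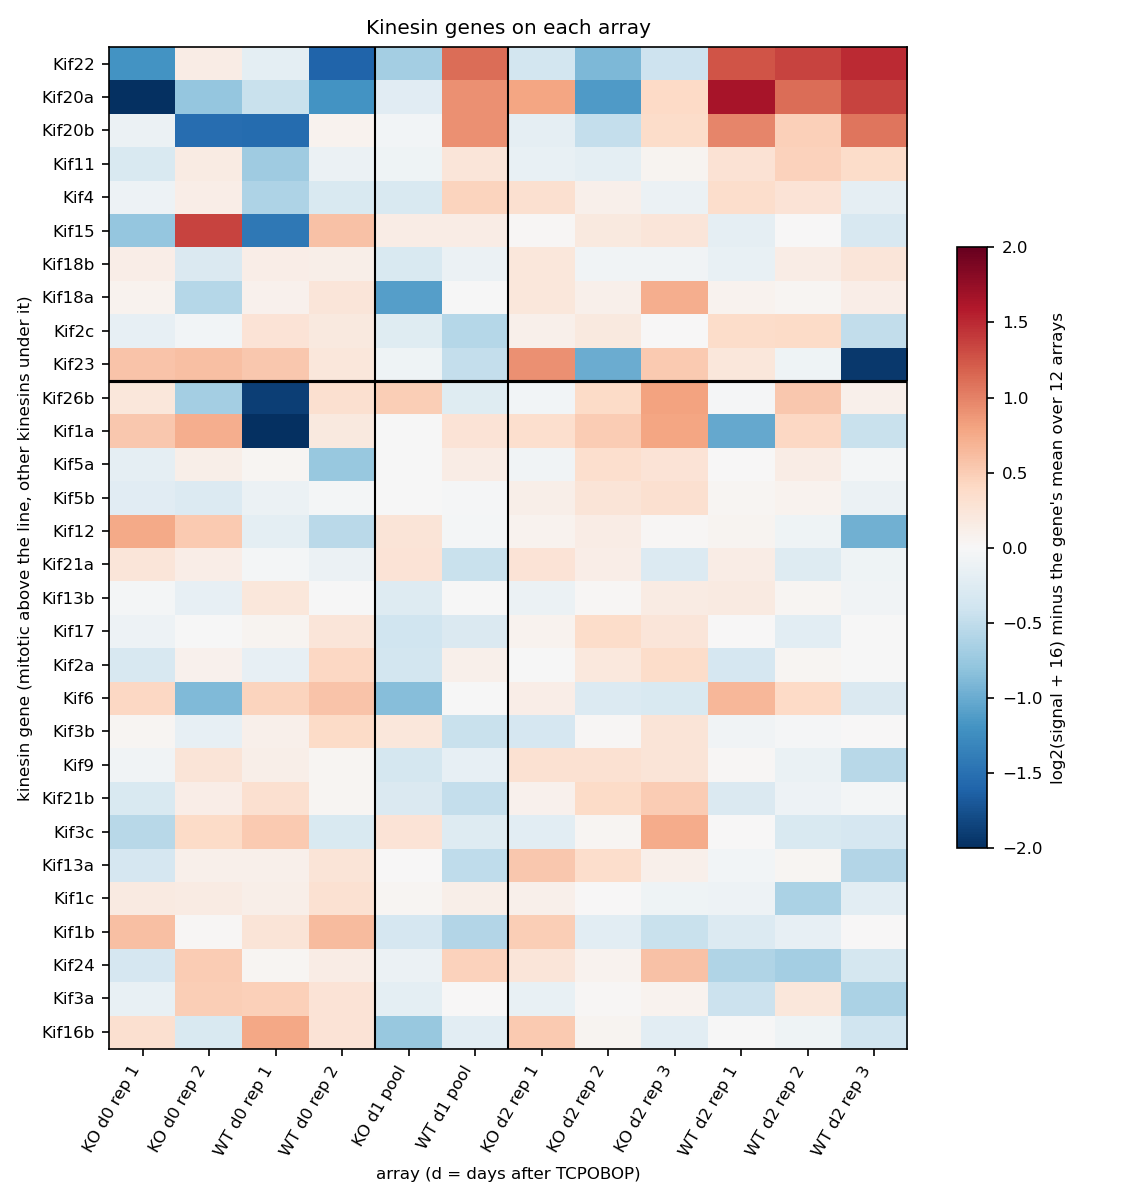
Log2(signal + 16) of the 30 tested kinesins on each array, as the difference from the gene's mean over the 12 arrays, with colours that saturate at 2 in either direction, and mitotic kinesins above the line. Kif22, Kif20a and Kif20b stand high on the WT arrays of day 1 and day 2.

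Of 7 tested kinesins and kinesin subunits outside the naming pattern, 1 was called higher in WT livers, Cenpe, where 7.26% of all genes were, and 1 was called lower in KO livers, Kifc3, where 4.49% of all genes were. Cenpe, the kinetochore motor that brings chromosomes to the spindle equator, read 223 and 295 units at day 0, 289 in the day 1 pool and 383, 225 and 390.4 at day 2 in KO livers. The WT signals were 166 and 70.8 at day 0, 628 in the day 1 pool and 388, 484 and 614 at day 2. It rose in WT livers by 2.00 ± 0.39 (adjusted p = 0.00544), while its difference in KO livers was 0.31 ± 0.39 (adjusted p = 0.698), and the change in KO livers minus that in WT livers was -1.69 ± 0.55 (adjusted p = 0.114), not called. At day 0 Cenpe stood 1.12 ± 0.43 higher in KO than in WT livers, which was not called (adjusted p = 0.512). At day 2 its KO and WT arrays overlapped and differed by -0.57 ± 0.35 (adjusted p = 0.303). Kifc3, a minus-end-directed kinesin, fell by 0.84 in KO livers (-0.84 ± 0.22, adjusted p = 0.0365) and had -0.48 ± 0.22 in WT livers (adjusted p = 0.190). Kifc1, a minus-end-directed kinesin that gathers spindle poles, was not tested.

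Calls were found among the proteins that work with the mitotic kinesins in both genotypes. Of 18 tested spindle and cytokinesis partners, 12 rose and 1 fell in WT livers, with a median of 1.22, where 7.26% of all genes were called higher and 5.38% lower and their median was -0.11. Birc5, a subunit of the chromosomal passenger complex, rose by 4.57 ± 0.62 (adjusted p = 0.000520), Ect2, which activates RhoA for cytokinesis, by 3.13 ± 0.45, Plk1, a mitotic kinase, by 3.06 ± 0.39, and Hmmr, a spindle assembly protein, by 1.85 ± 0.25. The gene that fell was Tpx2, an activator of Aurka that also binds Kif11, with -0.47 ± 0.14 (adjusted p = 0.0492). It is named for being the exception, after its value was seen. Like the other partners, Tpx2 was read from its brightest kept probe set, and values of any dimmer sets are not given here. In KO livers 6 of the 18 rose and none fell, with a median of 0.53, where 4.2% of all genes were called higher and 4.49% lower and their median was 0.05. Among the 6 were Ect2 by 2.27 ± 0.45, Aurkb by 1.29 ± 0.22, Hmmr by 1.14 ± 0.25 and Cdca8 by 0.91 ± 0.19.

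Between KO and WT livers at day 2, 6 of the 18 partners were called lower and none higher, with a median of -0.67, where 5.23% of all genes were called lower and 3.99% higher and their median was 0.09. Birc5 differed by -2.51 ± 0.56 (adjusted p = 0.0195), Plk1 by -1.52 ± 0.35 (adjusted p = 0.0226), Racgap1, the partner of Kif23, by -1.50 ± 0.30 (adjusted p = 0.0122) and Hmmr by -1.34 ± 0.22 (adjusted p = 0.00615). Birc5 read 443, 72.3 and 535 units in KO livers and 1649, 1438 and 1687 units in WT livers at day 2, and its second KO array was the one that also stood low for Kif20a. For Plk1 the KO change minus the WT change was called as well, at -3.06 ± 0.55 (adjusted p = 0.0198), the one call among the 18 partners in that comparison, where 2.06% of all genes were called lower. Plk1 already stood 1.54 ± 0.43 higher in KO livers at day 0, a difference that was not called (adjusted p = 0.302), with 234.7 and 328.5 units in KO livers and 140.8 and 48.9 units in WT livers, and at day 2 it read 349, 298 and 204 units in KO livers and 1018, 683 and 808 units in WT livers. Its difference of -3.06 is thus made up of the day 2 difference and, in about equal part, of the day 0 difference.

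Of 10 tested cargo adaptors and track proteins of kinesins none was called by limma in any of the 5 comparisons, and at an unadjusted p under 0.05 there were 3 between KO and WT livers at day 2 (1 higher, 2 lower) and at most 2 in each of the others. Of 20 tested genes of dynein, the motor that moves the opposite way, and its cofactor dynactin, 2 rose in WT livers, the light chain Dynll1 by 1.58 ± 0.12 and the dynactin subunit Actr1a by 1.31 ± 0.14, and 1 rose in KO livers, Dynll1 by 0.91 ± 0.12, where 7.26% of all genes were called higher in WT livers and 4.2% in KO livers. For Actr1a the KO change minus the WT change was -0.97 ± 0.20 (adjusted p = 0.0275), where 2.06% of all genes were called lower. It is made up of a day 0 difference between KO and WT livers of 0.55 ± 0.15 (adjusted p = 0.296) and a day 2 difference of -0.42 ± 0.12 (adjusted p = 0.0552), neither called. Of 9 tested genes of the MuvB, DREAM and FOXM1 regulators, 2 rose in WT livers, Rbl1 by 1.15 ± 0.31 and Tfdp1 by 0.87 ± 0.22, and 1 rose in KO livers, E2f4 by 0.62 ± 0.17, against the same 7.26% and 4.2% of all genes. The list takes in the MuvB complexes that bind the CHR, and not each of its genes need act through that element.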

How the data were processed

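The authors deposited 1 table of signal intensities for the 12 Affymetrix arrays; per the submitters' processing notes they came from MAS5, whose version is not given in the sources used here. To each intensity 16 was added before log2 was taken, and no further scaling was applied. Arrays have no read depth, and their number limits the precision. Gene names are those of the platform annotation, in which 34945 probe sets had a single gene, 932 more than 1 and 9160 no gene, beside 64 control sets; those with a single gene were kept when above the array's median on at least 2 arrays. Each gene was tested on its brightest kept probe set with limma 3.58.1 in R 4.3.3 (group means of all 6 groups, eBayes with its trend and robust options, and 6 degrees of freedom left), two-sided, with Benjamini-Hochberg adjustment over 14102 genes and calls under 0.05. The script was tested on simulated data. Where nothing in the labels says that arrays of a group are separate animals, p-values measure the spread between these samples. Replicate numbers were not taken as pairs: deviations from the group means of same-numbered KO and WT arrays at day 2 correlated at 0.034, 0.026 and 0.004.

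The kinesin genes, the mitotic class and the other lists were chosen with earlier results of these data known. All mitotic kinesins, other kinesins with a call, the 5 brightest other kinesins, Cenpe, Kifc1 and Yap1 are named, as are up to 4 called genes per other list and comparison, largest change first. Other kinesins singled out by a count, and marker genes, were named after their values were seen. Counts at an unadjusted limma p under 0.05 are given without the share of all genes at that threshold. None of them is read as a result about the genes counted. A fold is 2 to the power of the log2 difference and is given where no array of the lower group was under 64 units. Promoter windows and positions come from RefSeq tables of GRCm38.p6; a window's start need not be the gene's outermost annotated end. Alternatives were other scalings, filters, pseudocounts, probe sets, arrays in the fit, a replicate block, and leaving out each day 0 or day 2 array.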

Additional observations from a re-analysis of the deposited data

Results flagged for a closer look

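In 3 of the 20 other kinesins tested every KO day 2 array was above both KO day 0 arrays while every WT day 2 array was below both WT day 0 arrays. Among all genes 22.6% were apart upward in KO livers and 25.9% downward in WT livers. The share of all genes with both is not given here, so whether 3 is unusual cannot be said. The KO change minus the WT change was 0.50 ± 0.21 for Kif17 (limma, adjusted p = 0.208), 0.83 ± 0.36 for Kif13a, a carrier of endosomal cargo (adjusted p = 0.220), and 0.50 ± 0.36 for Kif9, a kinesin known from motile cilia and sperm tails (adjusted p = 0.441), so the test of the difference itself called none of them. In KO livers Kif13a read 359 and 494 units on the day 0 arrays and 677, 588 and 496 units on the day 2 arrays. On WT arrays it read 492 and 550.2 units before TCPOBOP and 442, 473 and 300.4 units on day 2. In KO livers Kif9 read 354.2 and 449.0 units on the day 0 arrays and 468.3, 464.2 and 449.4 units on the day 2 arrays. On WT arrays it read 409.1 and 383.7 units before TCPOBOP and 380.7, 339.1 and 248.8 units on day 2, so its groups were barely apart. These values are those of the brightest probe set of each gene, and Kif9 had no other kept. The dimmer sets of Kif17 gave 2.20 and 0.25 in KO livers and 0.49 and 0.04 in WT livers. Those of Kif13a gave 0.01, -0.11 and 1.04 in KO livers and -0.29, -0.38 and 0.65 in WT livers. The value of 0.01 ± 0.23 is no rise (limma, adjusted p = 0.991). A rise in KO livers beside a fall in WT livers was thus seen only on the brightest set of Kif17 and of Kif13a. Genes with a mean log2 signal from 8 to 10, the range of Kif13a and Kif9, had a median of 0.24 in the same comparison. Those from 10 to 12, the range of Kif17 with its mean of 10.02, had a median of -0.04.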

How the results depend on the processing

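In WT livers 1 mitotic kinesin was called, and the count was 3 with quantile normalization, 4 with arrays centred on their medians, and 2 with a pseudocount of 64, with the mean of a gene's probe sets, with only the arrays compared, and with the replicate block. Of all 14102 genes, 1024 were called higher in the main fit, 951 with quantile normalization, 1257 with centring and 1045 with a pseudocount of 64. The mean of probe sets gave 961, only the arrays compared 1051 and the replicate block 830. Leaving out 1 array gave 0 to 3, with 0 without the second WT array at day 0, and the median of the class, 0.43, ran from 0.21 to 0.93. Kif22 was in the list of called genes in every one of these settings except the fit without the second WT array at day 0. The other kinesins, 0 called, gave 1 with only the arrays compared (Kif1b) and 0 to 1 when 1 array was left out (Kif26b, without the second WT array at day 0). In KO livers the count of other kinesins called, 1, was 0 with centring, without trend and robust, with only the arrays compared and with the replicate block, and 0 to 1 when 1 array was left out; with the mean of probe sets the gene called was Kif17 and not Kif5b (adjusted p = 0.404). The median of the mitotic kinesins in KO livers, 0.10, was 0.46 with the mean of probe sets. At day 2 the count of mitotic kinesins called between KO and WT livers, 1, was 0 to 1 when 1 array was left out. For the other kinesins that count, 0, was 1 with the mean of probe sets (Kif17), and 0 to 1 when 1 array was left out (Kif24, without either KO array at day 0). For the KO change minus the WT change the count of mitotic kinesins, 0, was 1 with centring and 0 to 1 when 1 array was left out, in each case Kif22, and the median, -0.45, ran from -0.52 to 0.12.

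Some small differences changed sign. When 1 array was left out, WT differences ran from -0.76 to 1.26 for Kif15, from -0.12 to 0.07 for Kif18b and from -0.30 to 0.14 for Kif2c, and KO differences from -0.26 to 0.21 for Kif11 and from -0.71 to 0.64 for Kif22. In WT livers Kif15 was -0.76 without the first WT array at day 0, Kif18a 0.03 with quantile normalization and 0.04 with centring, and Kif18b 0.08 with centring and 0.07 without the first WT array at day 2. Kif2c was 0.54 with the mean of probe sets, 0.02 with the replicate block, 0.14 without the third WT array at day 2, and 1.03 and 1.34 on dimmer probe sets. In KO livers Kif11 was 0.54 with the mean of probe sets, 0.21 without the second KO array at day 0, 0.00 and 0.02 without the first or second KO array at day 2, and 0.59 and 1.05 on dimmer probe sets. Kif22 was 0.57 with the mean of probe sets, 0.64 without the second KO array at day 0, 0.14 without the second KO array at day 2, and 1.18 on the dimmer probe set. The causes were not tested. The test of every dimmer probe set was added after the data were seen. Quantities near the floor (Kif14) have no order, and 2 arrays a group at day 0 limit every change given here.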
